A study of Mus musculus with 6 samples.

Results

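Cell cycle and DNA replication genes were followed across 6 Affymetrix gene arrays of mouse epidermal keratinocytes. The list holds 46 genes, named by their known function in the cell cycle; no cutoff on measured values entered the choice, but earlier results of these data were known when it was made. All 46 were measured, each by a probe set annotated to that symbol alone, among 19938 named genes. Pcna and Top2a had a second such probe set, and the brighter on average was used.

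Keratinocytes, the cells of the epidermis, came from the skin of C57BL/6 mice at E18.5 and spent 2 to 5 days in culture, in samples marked as having no calcium. RNA of 2 mice was pooled on each array, and each of 3 groups had 2 arrays, called biological replicates in the labels. The control group was Ovol2 flox/+ with either Ovol1+/- or K14-Cre, so each control genotype still had a copy of both genes that Cre does not remove, and the labels do not say which mice went on which array. The group labelled Ovol1 KO was Ovol1-/-. The Ovol1/2 DKO group was Ovol1-/- and also Ovol2 flox/- with K14-Cre, a recombinase driven by a keratin promoter of basal keratinocytes, so that one Ovol2 allele was missing in all cells and the other was removed only where Cre acted. Both genes encode zinc finger transcription factors of epithelial tissues. The culture step was meant to bring out primary changes. The design allows 3 comparisons, of either knockout with the control group and of one knockout with the other.

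The values are log2(intensity + 16), and differences are on that scale. Ovol1 itself had levels of 9.64 and 9.95 on the control arrays and 5.96 and 6.22 on the Ovol1/2 DKO arrays, near the background of 6.20 (the highest array median of the unnamed probe sets). On the arrays labelled Ovol1 KO it was 10.75 and 9.80, which goes against their label. The Ovol1/2 DKO arrays, also of Ovol1-/- mice, were near background at the same probe set. Probe positions were not used here, and the reason was not tested. Every direction drawn from the arrays labelled Ovol1 KO rests on that label. All samples carry a female label, yet Xist, which coats the inactive X, was at 4.43 on control replicate 1 and at 4.54 on the first array labelled Ovol1 KO, against 10.99 to 11.43 elsewhere. Eif2s3y, a Y-linked gene, was at 13.80 on the first array labelled Ovol1 KO and at most 5.14 elsewhere. Array medians over all genes lay between 7.49 and 7.59. The median of the 10 keratinocyte markers (such as Krt5 and Krt14) lay between 12.32 and 12.66 on the 6 arrays, and all 10 were above the background level on every array.

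A dividing cell copies its DNA once and then parts the copies. Cyclins and their kinases drive the steps. E2F factors switch on genes for origin licensing, the replication fork and deoxynucleotide supply, and a later wave that includes Foxm1 targets supplies the kinases, checkpoint proteins and motors of mitosis. Because most of these transcripts are present only in cycling cells, their level in a bulk sample reflects both the share of cycling cells and the RNA per cell, which arrays of pooled RNA cannot tell apart. In the epidermis, division is a property of basal keratinocytes and stops when they differentiate.

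The cell cycle genes shared one order of arrays that cut across the groups. Their median level was 10.72 in control replicate 1 but 9.85 in control replicate 2. The arrays labelled Ovol1 KO had medians of 9.94 and 9.78, and those of Ovol1/2 DKO 10.88 and 10.22. Control replicate 1 and Ovol1/2 DKO replicate 1 were thus high, Ovol1/2 DKO replicate 2 intermediate, and control replicate 2 and both arrays labelled Ovol1 KO low. The first 2 were the highest arrays for 41 of 46 genes, an order held by 18.3% of all genes, and the exceptions were Ccnd2, Cdk4, Ccne1, E2f1 and E2f2. All 46 genes were above the background level on every array.

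**Figure D1:**
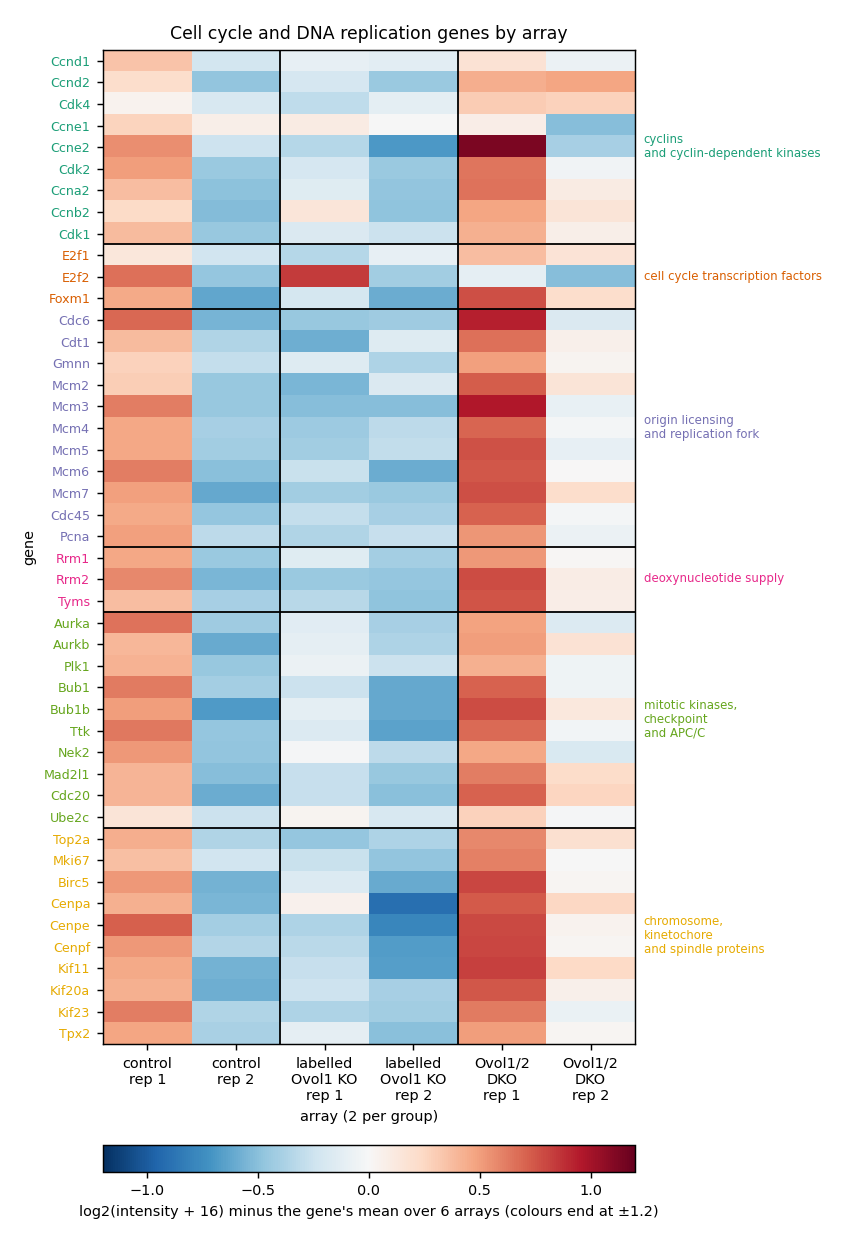
Level of each of the 46 genes (rows, coloured and named by role) on each of the 6 arrays (columns), as log2(intensity + 16) minus the gene's mean over the arrays, red for higher and blue for lower. Control replicate 1 and Ovol1/2 DKO replicate 1 are above the gene's mean in nearly every row, in some rows only slightly. E2f2 departs from this, below its mean in Ovol1/2 DKO replicate 1.

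The 2 control arrays differed for every gene of the list. All 46 were higher in control replicate 1, by 0.20 (Ccne1) to 1.24 (Cdc6), and 16 of them by more than 1 log2 unit. The median absolute difference between the control arrays was 0.91 for these genes and 0.28 for all genes. In Ovol1/2 DKO, 45 of 46 were higher in replicate 1 (all but Ccnd2), and the corresponding medians were 0.60 and 0.22. The arrays labelled Ovol1 KO differed less on these genes, 0.24 against 0.33 for all genes, with 36 of 46 higher in replicate 1. Of the 46 genes 45 had a mean level at or above that of the median gene. Among all such genes the differences between replicates were 0.35 in control, 0.36 in labelled Ovol1 KO and 0.25 in Ovol1/2 DKO. The pooled SD within groups had a median of 0.47 over the list and 0.24 over all genes.

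Promoters of 4 genes are shown because short DNA words tied to cell cycle transcription could be read in them. Of the genes with a searched word in their promoter, these had the lowest unadjusted p in Ovol1/2 DKO against control. Each is the 250 bases before the start of the gene, 5′ to 3′ on the gene's strand, from RefSeq (GRCm38.p6), with the matched words in capitals. The words were TTTGAA, the cell cycle homology region, bound by repressor and activator complexes of late cell cycle genes; the E2F words TTTGGCGC, TTTCCCGC, TTTCGCGC and TTTGCCGC; and CCAAT, bound by the factor NF-Y. Both strands were searched, and no matches overlapped in these promoters.
Cdc20 (chr4:118437344-118437593, minus strand): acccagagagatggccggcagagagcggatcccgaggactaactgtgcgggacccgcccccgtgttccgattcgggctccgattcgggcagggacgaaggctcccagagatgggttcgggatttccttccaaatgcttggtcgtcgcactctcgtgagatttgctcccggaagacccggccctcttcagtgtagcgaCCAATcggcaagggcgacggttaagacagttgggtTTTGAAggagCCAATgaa
Mcm2 (chr6:88898781-88899030, minus strand): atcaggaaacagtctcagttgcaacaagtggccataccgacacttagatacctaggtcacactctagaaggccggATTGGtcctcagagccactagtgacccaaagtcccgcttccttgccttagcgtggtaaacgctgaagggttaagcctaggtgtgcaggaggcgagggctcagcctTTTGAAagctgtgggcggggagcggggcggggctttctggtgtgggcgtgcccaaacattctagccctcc
Kif11 (chr19:37376132-37376381, plus strand): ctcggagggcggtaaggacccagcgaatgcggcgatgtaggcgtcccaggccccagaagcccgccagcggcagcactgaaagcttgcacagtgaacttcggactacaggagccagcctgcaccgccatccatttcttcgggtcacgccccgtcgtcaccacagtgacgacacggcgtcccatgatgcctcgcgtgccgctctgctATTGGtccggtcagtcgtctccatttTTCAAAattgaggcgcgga
Mcm7 (chr5:138171884-138172133, minus strand): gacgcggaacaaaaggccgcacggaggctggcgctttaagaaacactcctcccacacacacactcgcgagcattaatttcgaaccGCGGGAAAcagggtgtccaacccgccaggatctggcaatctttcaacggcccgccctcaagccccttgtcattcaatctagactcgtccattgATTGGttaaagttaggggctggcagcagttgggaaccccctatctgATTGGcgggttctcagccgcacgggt

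In Cdc20, TTTGAA lay at -18 to -13 from the start, between CCAAT words at -53 to -49 and -8 to -4. Kif11 held TTTGAA on the opposite strand at -19 to -14, and CCAAT, also on the opposite strand, at -45 to -41. Mcm2, another helicase subunit, had TTTGAA further out, at -70 to -65, and opposite-strand CCAAT at -175 to -171. Mcm7, a subunit of the replicative helicase, had instead the E2F word TTTCCCGC on the opposite strand at -165 to -158, with opposite-strand CCAAT at -72 to -68 and -26 to -22. The table of promoters held 36 of the 46 genes. TTTGAA was in the promoters of 10 of the 36 (27.8%), against 5252 of 32851 promoters of the same length. An E2F word was in 6 of 36 (16.7%: Cdc6, Cdk1, Cdk2, Mcm5, Mcm6 and Mcm7), against 1.86%, and CCAAT in 28 of 36 (77.8%), against 33.8%. The 36 were counted as genes and the 32851 as promoters, so the shares are not in the same unit. A listed gene with several promoters would have more chances of a match, which would raise its list's share. Cdk1 held all 3 kinds, and 7 of the 36 held none. A match is a description of these letters and not a measured site. The median log2 difference of Ovol1/2 DKO minus labelled Ovol1 KO was 0.68 for genes with TTTGAA and 0.75 for the rest of the 36, 0.75 and 0.73 with and without an E2F word, and 0.71 and 0.76 with and without CCAAT.

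The first comparison, Ovol1/2 DKO against control, sets the double knockout genotype beside the control genotypes. Ovol2 itself overlapped between these groups, at 8.37 and 6.97 in control and 7.63 and 7.50 in Ovol1/2 DKO (difference -0.10, limma adjusted p = 1), so its loss is not seen at this probe set. No cell cycle gene passed (0 of 46 at a limma adjusted p under 0.05), where 403 of 19938 genes did (2.02%). At an unadjusted p under 0.05 in limma there were 0 of 46, against 10.4% of all genes (1010 higher and 1061 lower). The median log2 difference of the 46 was 0.32, against 0.03 for all genes, and 43 were higher in Ovol1/2 DKO. The groups did not overlap for 3 genes, all higher in Ovol1/2 DKO (Ccnd2, Cdk4 and E2f1), against 21.1% of all genes; none was lower without overlap, against 3608 of 19938 genes. The median depended on the arrays used: it was 0.76 without control replicate 1 and -0.11 without control replicate 2, and 0.02 or 0.63 without Ovol1/2 DKO replicate 1 or 2.

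In the second comparison, the arrays labelled Ovol1 KO against control, again none of the 46 passed by limma (0%, as for all genes). At an unadjusted p under 0.05 in limma there were 0 of 46, against 0.767% of all genes (63 higher and 90 lower). The median log2 difference was -0.35, against -0.00 for all genes, and 45 of 46 were lower in the arrays labelled Ovol1 KO. For 5 genes (Ccne2, Mcm3, Kif23, Mki67 and, only at the probe set used, Top2a) both of these arrays were below both controls, against 10.3% of all genes. None was above both, against 1759 of 19938 genes. The median was 0.10 without control replicate 1 and -0.79 without control replicate 2, so its sign turned when control replicate 1 was left out. Without replicate 1 or 2 labelled Ovol1 KO it was -0.41 or -0.23.

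The third comparison, Ovol1/2 DKO against the arrays labelled Ovol1 KO, held the largest differences of the list. By limma 0 of 46 passed, where 628 of 19938 genes did (3.15%). At an unadjusted p under 0.05 in limma there were 9 of 46, all higher in Ovol1/2 DKO, against 14.1% of all genes (1523 higher and 1279 lower). The median difference was 0.72, against 0.02 for all genes. For 40 of 46 genes both Ovol1/2 DKO arrays were above both arrays labelled Ovol1 KO, against 24.6% of all genes. None was below both, against 3688 of 19938 genes. The 6 that overlapped were Ccne1, Ccne2, E2f2, Aurka, Nek2 and Ube2c. The median was 0.38 without Ovol1/2 DKO replicate 1 and 1.03 without replicate 2, and 0.77 or 0.60 without replicate 1 or 2 labelled Ovol1 KO. This comparison shares arrays with the other 2, so the 3 are not independent.

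**Figure D2:**
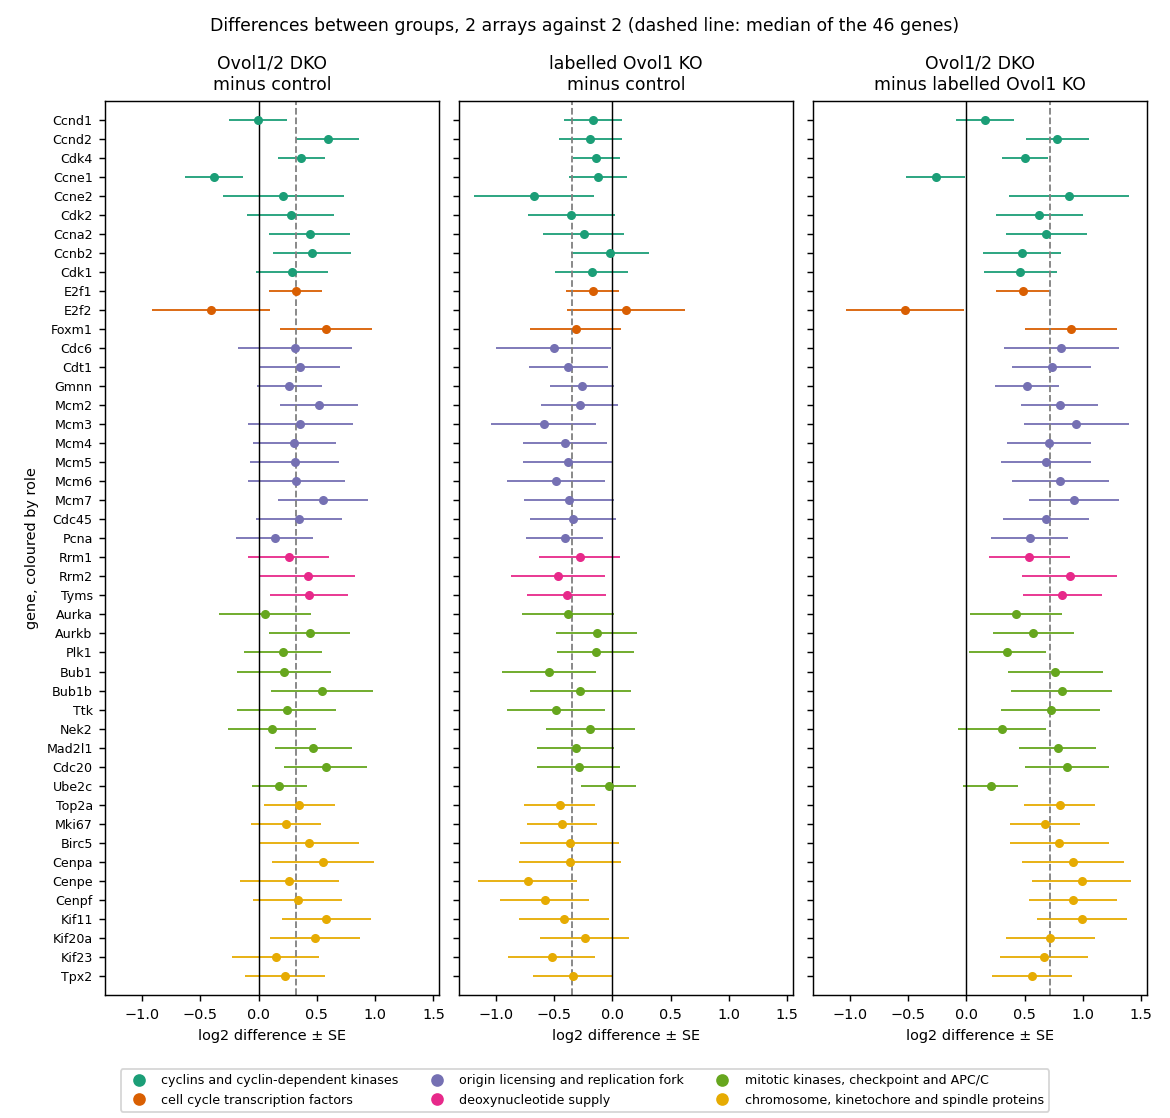
Log2 difference of each gene (rows, coloured by role) in the 3 comparisons, with the standard error of the limma fit as bars and the median of the 46 genes as a dashed line (0.32, -0.35 and 0.72 from left to right). Most points lie on one side of 0 in each panel, and no gene passed the adjusted test.

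Among the cyclins and their kinases, Ccnd2 had the smallest p of the list in both comparisons that involve Ovol1/2 DKO. Ccnd2, a D-type cyclin of the G1 phase, read 12.65 and 11.97 in control, 12.24 and 11.99 under the Ovol1 KO label, and 12.88 and 12.92 in Ovol1/2 DKO. Both Ovol1/2 DKO arrays were above all others, and they differed from each other by less than the arrays of any other group. Ccnd2 was 0.59 higher than control (SE 0.27, n = 2 per group, limma adjusted p = 0.560) and 0.78 higher than labelled Ovol1 KO (SE 0.27, limma adjusted p = 0.244), and neither passed. Cdk4, the kinase partner of D-type cyclins, read 12.56 and 12.32, then 12.20 and 12.39, then 12.81 and 12.79 in the same order of groups. It was 0.37 above control (SE 0.20, limma adjusted p = 0.702) and 0.50 above labelled Ovol1 KO (SE 0.20, limma adjusted p = 0.326). With E2f1, these were the 3 of 46 genes with both Ovol1/2 DKO arrays above the other 4, against 12.8% of all genes. Ccnd1, also a D-type cyclin, read 12.92 and 12.36 in control, 12.49 and 12.46 under the Ovol1 KO label, and 12.76 and 12.51 in Ovol1/2 DKO, and its difference from control was -0.01 (SE 0.25).

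The E-type cyclins did not run in parallel. Ccne1, which with Cdk2 starts S phase, read 10.30 and 10.10 in control, 10.12 and 10.03 under the Ovol1 KO label, and 10.10 and 9.52 in Ovol1/2 DKO. It was lowest in Ovol1/2 DKO replicate 2, and its difference from control of -0.39 (SE 0.25, limma adjusted p = 0.832) was -0.09 without that array. Ccne2 read 9.31 and 8.51, 8.41 and 8.06, and 9.89 and 8.36 over the same groups, so the Ovol1/2 DKO arrays lay 1.53 apart and spanned those of control. Cdk2, the kinase of both, read 10.16 and 9.22, 9.46 and 9.21, and 10.31 and 9.62. Ccna2, the cyclin of S phase and G2, read 12.02 and 11.15, 11.50 and 11.18, and 12.30 and 11.75, and was 0.69 higher in Ovol1/2 DKO than in labelled Ovol1 KO (SE 0.35, limma adjusted p = 0.460). The mitotic kinase Cdk1 and its partner Ccnb2 were 0.46 and 0.48 higher in that comparison, with adjusted p = 0.595 and 0.615 in limma.

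Among the transcription factors, Foxm1 and E2f2 differed in pattern. Foxm1, an activator of mitotic genes, read 10.30 and 9.22 in control, 9.63 and 9.25 under the Ovol1 KO label, and 10.62 and 10.05 in Ovol1/2 DKO. It was 0.58 above control (SE 0.39, limma adjusted p = 0.866) and 0.90 above labelled Ovol1 KO (SE 0.39, limma adjusted p = 0.385). E2f1, an activator of S phase genes, read 9.46 and 9.09, 8.98 and 9.23, and 9.70 and 9.48, with a difference of 0.32 from control (SE 0.23). E2f2, a close relative, read 8.08 and 6.96, 8.27 and 7.01, and 7.31 and 6.92. It was high in control replicate 1 and replicate 1 labelled Ovol1 KO, the arrays without Xist signal, and low on the other 4, and it was the single gene of the list that read highest in an array labelled Ovol1 KO. Its difference of Ovol1/2 DKO minus control was -0.41 (SE 0.51), and 0.15 without both arrays lacking Xist signal.

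Genes of origin licensing and the replication fork gave the same picture gene by gene. On group means all 11 were higher in Ovol1/2 DKO than in control, by 0.14 (Pcna) to 0.55 (Mcm7). The means of the arrays labelled Ovol1 KO were lower than control, by values from -0.59 (Mcm3) to -0.26 (Gmnn). These directions depended on the control array. Against control replicate 2, labelled Ovol1 KO replicates 1 and 2 were higher for 6 and 8 of the 11. Ovol1/2 DKO replicate 2 was below control replicate 1 for all 11. All 11 had both Ovol1/2 DKO arrays above both arrays labelled Ovol1 KO, against 24.6% of all genes. The median difference of these group means was 0.73. None passed in any comparison. The helicase subunit Mcm7 read 11.20 and 10.09 in control, 10.28 and 10.26 under the Ovol1 KO label, and 11.48 and 10.91 in Ovol1/2 DKO. Mcm3 read 10.15 and 9.09, 9.02 and 9.03, and 10.50 and 9.45, and Mcm2 read 10.79 and 10.04, 9.94 and 10.32, and 11.22 and 10.65. The largest difference from labelled Ovol1 KO was that of Mcm3 (0.95, SE 0.45, limma adjusted p = 0.424), and Mcm4, Mcm5 and Mcm6 differed by 0.71, 0.69 and 0.81.

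For the licensing factors Ovol1/2 DKO replicate 1 and control replicate 1 were again the highest arrays. Cdc6, which loads the helicase, read 8.93 and 7.69 in control, 7.79 and 7.82 under the Ovol1 KO label, and 9.17 and 8.07 in Ovol1/2 DKO, the widest gap between control arrays in the list. Cdt1, its partner in loading, read 10.19 and 9.45, 9.23 and 9.65, and 10.48 and 9.87. Gmnn, which inhibits Cdt1 after S phase begins, read 8.52 and 7.96, 8.08 and 7.87, and 8.73 and 8.27. Cdc45, which joins the helicase at the fork, was 0.69 higher in Ovol1/2 DKO than in labelled Ovol1 KO (SE 0.37, limma adjusted p = 0.493). Pcna, the sliding clamp of the polymerases, read 12.66 and 11.86, 11.81 and 11.89, and 12.70 and 12.10, and its second probe set gave nearly the same levels, from 11.79 to 12.69. The arrays labelled Ovol1 KO differed little here: 7 of the 11 genes were higher in replicate 2 and 4 in replicate 1.

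The enzymes of deoxynucleotide supply followed the same profile. Rrm2, the regulated subunit of ribonucleotide reductase, read 12.24 and 11.11 in control, 11.21 and 11.19 under the Ovol1 KO label, and 12.44 and 11.74 in Ovol1/2 DKO. It was 0.42 above control (SE 0.41, limma adjusted p = 0.983) and 0.89 above labelled Ovol1 KO (SE 0.41, limma adjusted p = 0.404). Tyms, thymidylate synthase, was 0.82 above labelled Ovol1 KO (SE 0.34, limma adjusted p = 0.342), and Rrm1, the large subunit of the reductase, 0.54 (SE 0.35).

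**Figure D3:**
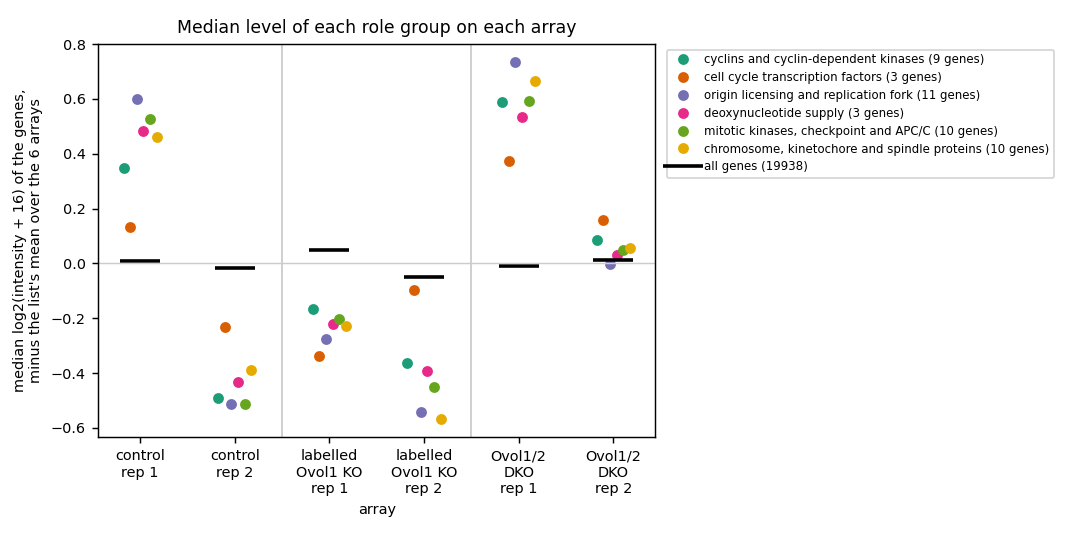
Median level of each role group of the 46 genes on each array, minus that group's mean over the 6 arrays, in log2 units (points, with 3 to 11 genes each), beside the median of all 19938 genes (black lines). The role groups lie above 0 in control replicate 1 and Ovol1/2 DKO replicate 1 and below 0 in control replicate 2 and both arrays labelled Ovol1 KO, while the line for all genes stays near 0.

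Mitotic kinases, checkpoint genes and genes of the anaphase-promoting complex had a median difference of 0.65 between Ovol1/2 DKO and labelled Ovol1 KO. On group means all 10 were higher in Ovol1/2 DKO than in control, by 0.05 (Aurka) to 0.58 (Cdc20). The means of the arrays labelled Ovol1 KO were lower than control, by values from -0.55 (Bub1) to -0.03 (Ube2c). These directions depended on the control array. Against control replicate 2, labelled Ovol1 KO replicates 1 and 2 were higher for 10 and 8 of the 10. Ovol1/2 DKO replicate 2 was below control replicate 1 for all 10. Cdc20, the activator of the anaphase-promoting complex, read 10.87 and 9.86 in control, 10.19 and 9.96 under the Ovol1 KO label, and 11.16 and 10.72 in Ovol1/2 DKO. It was 0.87 above labelled Ovol1 KO (SE 0.36, limma adjusted p = 0.347). Aurka, a spindle pole kinase, read 11.07 and 9.99, 10.29 and 10.02, and 10.91 and 10.26, highest in a control array. Aurkb, the kinase of the chromosomal passenger complex, read 11.73 and 10.73, 11.23 and 10.97, and 11.84 and 11.51. Plk1, a kinase of mitotic entry and exit, ranged from 10.80 in control replicate 2 to 11.68 in Ovol1/2 DKO replicate 1, and was 0.35 above labelled Ovol1 KO (SE 0.33, limma adjusted p = 0.733).

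The spindle checkpoint genes Bub1, Bub1b, Ttk and Mad2l1 were 0.76, 0.82, 0.72 and 0.78 higher in Ovol1/2 DKO than in labelled Ovol1 KO. None passed, and each was higher without overlap, as were 24.6% of all genes. Mad2l1, which holds Cdc20 inactive until chromosomes are attached, read 11.23 and 10.32 in control, 10.55 and 10.37 under the Ovol1 KO label, and 11.44 and 11.05 in Ovol1/2 DKO. Nek2, a centrosome kinase, and Ube2c, the ubiquitin-conjugating enzyme of the anaphase-promoting complex, gave 0.31 and 0.21, with overlap. Ube2c had the smallest range over the 6 arrays, 0.53, and Ccne2 the widest, 1.82. In all 10 genes replicate 1 labelled Ovol1 KO was above replicate 2, by up to 0.50, unlike the licensing genes.

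Chromosome, kinetochore and spindle genes included the 2 largest single differences between Ovol1/2 DKO and labelled Ovol1 KO, those of Kif11 and Cenpe. All 10 were higher in Ovol1/2 DKO than in labelled Ovol1 KO without overlap, against 24.6% of all genes. The median difference of these group means was 0.80. Kif11, the motor that parts the spindle poles, read 10.30 and 9.27 in control, 9.57 and 9.17 under the Ovol1 KO label, and 10.66 and 10.07 in Ovol1/2 DKO. It was 1.99-fold (0.99, SE 0.39) above labelled Ovol1 KO with limma adjusted p = 0.309, and 0.58 above control (SE 0.39). Cenpe, a kinetochore motor, read 9.46 and 8.34, 8.38 and 7.97, and 9.54 and 8.79, with 0.99 above labelled Ovol1 KO (SE 0.43, limma adjusted p = 0.368). Top2a, the topoisomerase that untangles sister chromatids, read 11.14 and 10.34, 10.24 and 10.33, and 11.28 and 10.89, and was 0.80 above labelled Ovol1 KO (SE 0.30, limma adjusted p = 0.298). Its other probe set read 7.25 and 7.22 in control, 6.55 and 7.39 under the Ovol1 KO label, and 7.91 and 7.47 in Ovol1/2 DKO. There Ovol1/2 DKO replicate 1 was highest too, but replicate 2 labelled Ovol1 KO was above both control arrays.

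Mki67, the common marker of cycling cells, read 10.42 and 9.83 in control, 9.79 and 9.59 under the Ovol1 KO label, and 10.67 and 10.06 in Ovol1/2 DKO. It was 0.24 above control (SE 0.30, limma adjusted p = 1) and 0.67 above labelled Ovol1 KO (SE 0.30, limma adjusted p = 0.391). Birc5, a passenger complex protein, and the kinetochore protein Cenpf were 0.80 and 0.92 above labelled Ovol1 KO, and the spindle assembly factor Tpx2 and the motors of cell cleavage Kif20a and Kif23 were 0.57, 0.72 and 0.67 above it. Cenpa, the histone H3 variant of centromeres, read 10.71 and 9.73, 10.33 and 9.38, and 11.02 and 10.53. It was 0.92 above labelled Ovol1 KO (SE 0.44, limma adjusted p = 0.425), and it was the single gene of the list to pass in any setting tried: without both arrays lacking Xist signal the difference was 1.39 (SE 0.29, limma adjusted p = 0.0284), with 1 array left in each of control and labelled Ovol1 KO and their spread taken from the Ovol1/2 DKO arrays and from other genes.

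Further genes of DNA replication and mitosis outside the list gave the same array profile. The 52 other replication genes had medians of 9.72 and 8.79 in control, 9.07 and 8.71 under the Ovol1 KO label, and 9.88 and 9.24 in Ovol1/2 DKO, and the 73 other mitosis genes 9.86 and 8.80, 9.20 and 8.83, and 10.02 and 9.33. By limma none of the 52 or of the 73 passed in any comparison, while 8 and 8 were at an unadjusted p under 0.05 in Ovol1/2 DKO against labelled Ovol1 KO, all higher, where 7.64% of all genes were higher at that threshold, and 0 and 1 were higher against control, where 5.07% were. Their median differences were 0.31 and 0.32 for Ovol1/2 DKO minus control, -0.46 and -0.38 for labelled Ovol1 KO minus control, and 0.69 and 0.68 for Ovol1/2 DKO minus labelled Ovol1 KO. Cenpt, which links the centromere to the outer kinetochore, read 10.14 and 9.81 in control, 9.82 and 9.80 under the Ovol1 KO label, and 10.66 and 10.58 in Ovol1/2 DKO. It was 0.81 above labelled Ovol1 KO (SE 0.21, limma adjusted p = 0.113) and 0.64 above control (SE 0.21, limma adjusted p = 0.270), the smallest p of the mitosis genes in both. Chaf1b, a subunit of the chromatin assembly factor that acts behind the fork, had the smallest p of the replication genes, 0.97 above labelled Ovol1 KO (SE 0.31, limma adjusted p = 0.212) and 0.60 above control (SE 0.31). For labelled Ovol1 KO minus control these places went to Slbp, the histone mRNA binding protein (-0.64, SE 0.31), and the kinetochore gene Ndc80 (-0.76, SE 0.44), each with limma adjusted p = 0.999.

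Other lists also differed between these arrays, and the keratinocyte marker Trp63 was higher in Ovol1/2 DKO than in labelled Ovol1 KO by limma. The median of 14 late differentiation genes was 9.38 and 10.62 in control, 11.89 and 9.79 under the Ovol1 KO label, and 7.09 and 8.07 in Ovol1/2 DKO. In control and in Ovol1/2 DKO the array with the higher cell cycle level had the lower differentiation level. The arrays labelled Ovol1 KO went the other way: replicate 1 was higher in both, with a differentiation median of 11.89 against 9.79 and a cell cycle median of 9.94 against 9.78. Of these 14 genes 3 were lower in Ovol1/2 DKO than in control by limma (Tgm1, Sprr1b and Abca12) and 5 lower than in labelled Ovol1 KO, and their summed intensity was 28483 and 47244 in control, 57942 and 33600 under the Ovol1 KO label, and 3269 and 5064 in Ovol1/2 DKO. The 12 fibroblast markers had medians of 7.10 and 7.88 in control and 7.41 and 7.87 in Ovol1/2 DKO, were higher in replicate 2 of all 3 groups, and had summed intensity of 2662 to 3236 in control, 2745 to 3302 in labelled Ovol1 KO and 4404 to 5219 in Ovol1/2 DKO. Lum was at or under the background level on every array, and Thy1 passed as higher in both comparisons of Ovol1/2 DKO. The 12 leukocyte markers had medians of 5.83 to 6.79, with Cd74, Cd3g, Cd207 and Tyrobp at or under background on every array, and summed intensity of 2315 to 3516 in control, 2828 to 5139 in labelled Ovol1 KO and 1789 to 3124 in Ovol1/2 DKO. The 9 melanocyte markers had medians of 5.99 to 7.34, with Tyr under background, and the 8 endothelial markers 6.18 to 6.28, with Cdh5, Tek and Emcn under it. Of these, Pecam1 was higher in Ovol1/2 DKO than in labelled Ovol1 KO by limma. The part of these lists in the cell cycle differences was not tested. Of the 2 arrays without Xist signal, control replicate 1 was high in cell cycle level and the one labelled Ovol1 KO was low. Each was above the other array of its group, for 46 and 36 of 46 genes in that order. The part of sex or Xist signal in these levels was not tested.

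**Figure D4:**
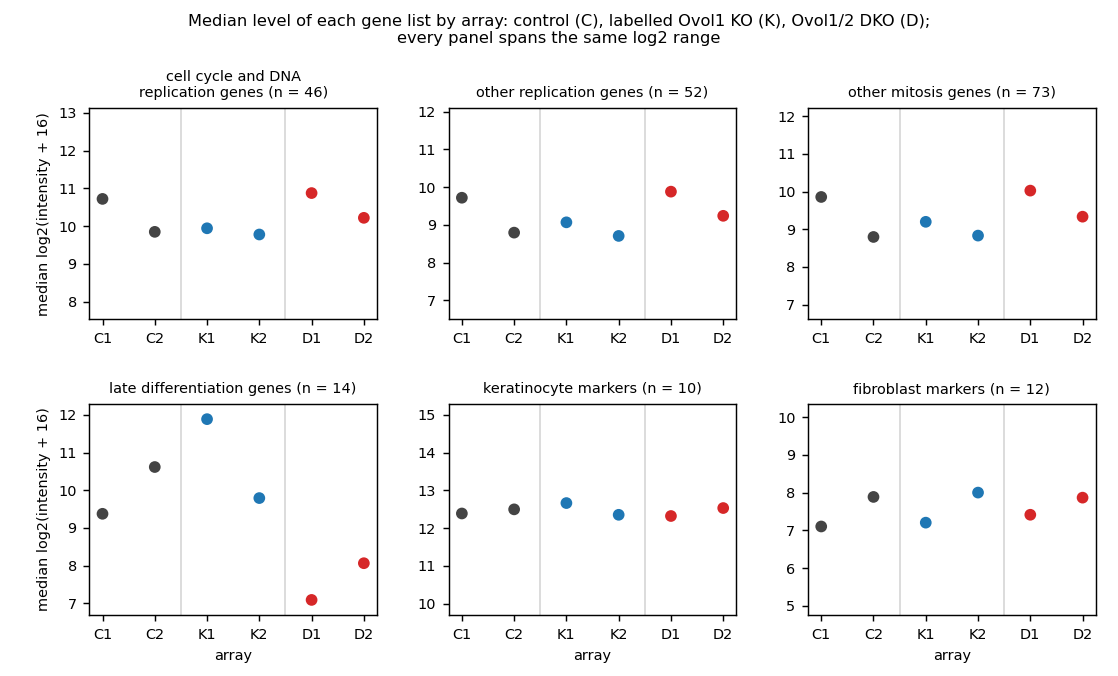
Median log2(intensity + 16) of 6 gene lists on each array, for control (C1, C2), labelled Ovol1 KO (K1, K2) and Ovol1/2 DKO (D1, D2), with 1 point per array and the same log2 span in every panel. The 3 panels of dividing-cell genes each have D1 highest, then C1, D2 and K1, the late differentiation genes range from 7.09 to 11.89, and the keratinocyte markers stay within 12.32 to 12.66.

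The sign of the median in the first comparison turned without control replicate 2 and in the second without control replicate 1, and that of the third was the same in every fit without 1 array. Over the fits that left out 1 array each, the median of the 46 genes ran from -0.11 to 0.76 for Ovol1/2 DKO minus control, from -0.79 to 0.10 for labelled Ovol1 KO minus control, and from 0.38 to 1.03 for Ovol1/2 DKO minus labelled Ovol1 KO. Without both arrays lacking Xist signal the medians were 0.76, 0.03 and 0.77, and 0, 0 and 1 of the 46 genes passed by limma.

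**Figure D5:**
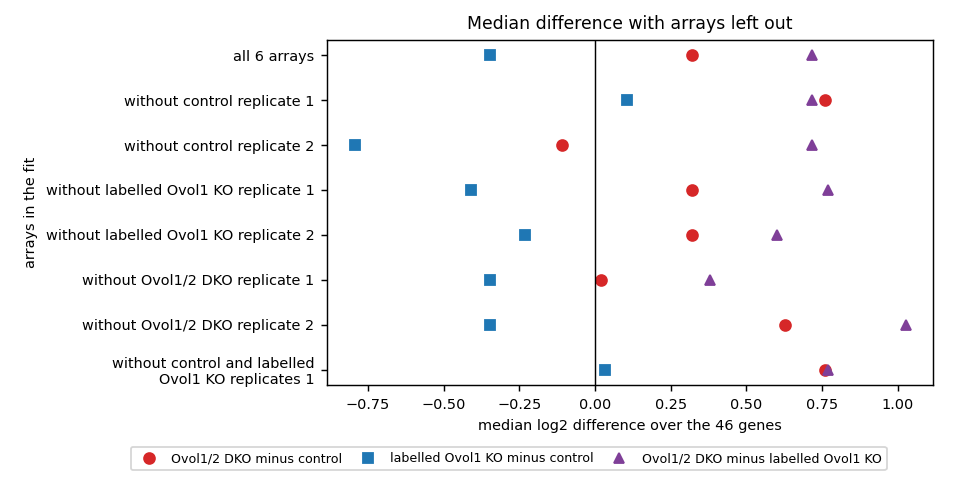
Median log2 difference of the 46 genes in the 3 comparisons (circles, squares and triangles) with all 6 arrays, without each array in turn and without both arrays lacking Xist signal. The circles and squares cross 0 when a control array is left out, and the triangles stay between 0.38 and 1.03.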

How the data were processed

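The authors deposited probe set intensity on a linear scale for 6 arrays (35556 probe sets). The submitters' processing notes name Affymetrix Expression Console 1.1.1 and PLIER 2.0; how background, scaling and filters were set is not given in the sources used here. A platform annotation gave 1 symbol to 21789 probe sets and several to 1621, left unnamed, and none to 12146. Current symbols came from Entrez identifiers in the GRCm38.p6 gene table (91 had no match), and the probe set with the highest mean stood for a gene.

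Values were taken as log2(intensity + 16), which understates changes of dim genes. All 6 arrays entered 1 linear model in limma 3.58.1 (R 4.3.3; lmFit, eBayes), from which the 3 comparisons were taken with Benjamini-Hochberg adjustment over 19938 genes, passing under 0.05. Standard errors are of the moderated fit. The fit was tested on simulated data. An exact test of 2 arrays against 2 cannot give a two-sided p below 0.333, and the number of arrays limits the precision. The labels call the arrays biological replicates, and separate cultures are not stated, so p-values measure only the spread between these samples.

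The 46 genes and all lists were chosen with earlier results of these data known. All 46 were eligible to be named. Of the other replication and mitosis genes, the gene with the smallest p per list and comparison was named, since none passed. The fit was repeated with replicate number as a block, without each array and without both that lack Xist signal, on just the pair of groups, after quantile scaling or centring on the median, with 1 or 64 added in place of 16, without genes of a mean under 7, on all probe sets, and with a variance trend or robust variance.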

Additional observations from a re-analysis of the deposited data

How the results depend on the processing

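No gene of the list passed in any of the 3 comparisons under the alternatives tried, except Cenpa in Ovol1/2 DKO minus labelled Ovol1 KO without both arrays lacking Xist signal, where the count became 1. The medians over the list ran, with 1 array left out, from -0.11 to 0.76 (Ovol1/2 DKO minus control), from -0.79 to 0.10 (labelled Ovol1 KO minus control) and from 0.38 to 1.03 (Ovol1/2 DKO minus labelled Ovol1 KO), and under the other alternatives from 0.30 to 0.76, from -0.38 to 0.03 and from 0.64 to 0.77. Of 690 gene-by-alternative differences per comparison, 54, 65 and 4 changed sign in that order of comparisons, none of them passing. The 690 include alternatives that cannot move a difference, such as the replicate block, fitting just the pair of groups and adjusting over all probe sets. Without control replicate 2, 30 of 46 genes changed sign in Ovol1/2 DKO minus control. Without control replicate 1, 32 of 46 did in labelled Ovol1 KO minus control. With replicate number as a replicate block 0 genes of the list passed in each comparison. The block is balanced over the groups, so it cannot move the medians, which were 0.32, -0.35 and 0.72. The smallest adjusted p was 0.0572 (limma, Kif11, Ovol1/2 DKO minus labelled Ovol1 KO). Unadjusted p in limma was under 0.05 for 7, 3 and 33 of the 46, beside 14.6%, 3.59% and 22.4% of all genes. Without the block these counts were 0, 0 and 9, beside 10.4%, 0.767% and 14.1%. Deviations of arrays with the same number correlated across genes at 0.26 for control with labelled Ovol1 KO. They correlated at 0.49 for control with Ovol1/2 DKO and at 0.19 for labelled Ovol1 KO with Ovol1/2 DKO. However, nothing in the labels ties a number to a common day or litter. Arrays of the same number were also set side by side. Ovol1/2 DKO was above control for 41 of 46 genes in replicate 1 (median 0.23) and 43 in replicate 2 (median 0.44). The counts over all 19938 genes were 10909 and 10871. Ovol1/2 DKO was above labelled Ovol1 KO for 44 in each replicate (medians 0.90 and 0.44), beside 11404 and 10240 of all genes. Labelled Ovol1 KO was above control for 1 of 46 genes in replicate 1 (median -0.68) and 28 in replicate 2 (median 0.03). The counts over all genes were 9357 and 9409. Leaving out 1 array of a group breaks these pairs. Across numbers, Ovol1/2 DKO replicate 2 was above control replicate 1 for 3 of 46 genes (median -0.43). Ovol1/2 DKO replicate 1 was above control replicate 2 for all 46 (median 1.11). Ovol1/2 DKO replicates 1 and 2 were above the other-numbered labelled Ovol1 KO array for 46 and 40 (medians 1.07 and 0.28). Labelled Ovol1 KO replicates 1 and 2 were above the other-numbered control array for 35 and 0 (medians 0.21 and -0.86). Over all genes the counts passing with the block were 597, 0 and 1022, against 403, 0 and 628; over all alternatives these counts ran from 86 (p-values adjusted over all probe sets) to 1395, from 0 to 20, and from 135 (without replicate 1 labelled Ovol1 KO) to 1508, the highest each without both arrays lacking Xist signal. All genes of the list were above background on every array, and their spread within groups was wider than that of all genes (median pooled SD 0.47 against 0.24).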
